A study of Rattus norvegicus with 6 samples.

Results

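The genes described here build the contractile apparatus of skeletal muscle and release calcium inside its fibres. They were taken as the loci of the deposited count table whose gene symbol equals a listed name, and 34 of 40 listed genes had such a locus among 34225 loci. No row of that name was found for Myh2, Myh4, Atp2a1, Ttn, Myot and Tcap, and these 6 genes were not analysed here. The study sequenced RNA from the back skin of Sprague-Dawley rats in which an epidermal growth factor receptor (EGFR) inhibitor had caused a rash. The first group received gefitinib, a reversible EGFR inhibitor, at 80 mg/kg by mouth once daily until the rash appeared. The second received afatinib, an irreversible inhibitor of EGFR and related receptors, at 30 mg/kg on the same schedule. The reference was skin of untreated rats of the same strain, and each of the 3 groups had 2 libraries. The labels give neither the age nor the sex of the rats, nor whether a library is 1 animal, so p-values measure the spread between these libraries only. The label doses differ between the inhibitors, and values for both are given side by side.

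In a sarcomere, thick filaments of myosin pull on thin filaments of actin, and the troponin complex on the thin filament lets them do so when calcium binds. A nerve impulse reaches the calcium channel Cacna1s in the fibre membrane, which opens the release channel Ryr1 in the sarcoplasmic reticulum, where calsequestrin stores the calcium. Fast and slow fibres use different genes for many of these proteins, and rodent skin lies on a thin sheet of skeletal muscle, the panniculus carnosus. By the usual assignment, 11 of the genes measured belong to fast fibres, 8 to slow fibres and 2 to developing or regenerating fibres, and the remaining 13 are used in both fibre kinds or were not assigned.

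Library totals ran from 17206456 to 22086673 counts, and 16398 genes passed the filter on low counts, all 34 sarcomere and calcium genes among them. The lowest member was Myl2, with 16 and 31 counts in the gefitinib libraries. Levels are given as CPM, read counts relative to a library total scaled by trimmed mean of M-values (TMM). The 34 genes took 6.56% and 10.8% of all counts in gefitinib skin, 19.6% and 7.02% in afatinib skin, and 24.9% and 23.1% in untreated skin. The 2 afatinib libraries stood apart from each other: afatinib replicate 1 was higher than replicate 2 for 32 of 34 genes, by a median factor of 3.88, and gefitinib replicate 2 was higher than replicate 1 for 33 of 34, by a median factor of 1.79. In a piece of skin, fewer muscle fibres and less RNA per fibre cannot be told apart. Fast genes took 3.21% and 5.72% of counts with gefitinib, 8.31% and 2.92% with afatinib, and 12.3% and 10.6% in untreated skin. Slow genes took 0.0502% and 0.0561% with gefitinib, 0.144% and 0.131% with afatinib, and 0.173% and 0.294% in untreated skin. The 95% Wilson intervals of these shares were at most 0.0378 percentage points wide and cover counting error only. With gefitinib, Tpm3 gave 4063 of 9919 and 3086 of 11540 slow counts. It gave 2077 of 24810 and 6431 of 24308 with afatinib. In untreated skin it gave 3798 of 34829 and 7588 of 64901. Between replicates of each inhibitor Tpm3 went against most of the 34 genes, and whether its RNA came from muscle was not tested.

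**Figure D1:**
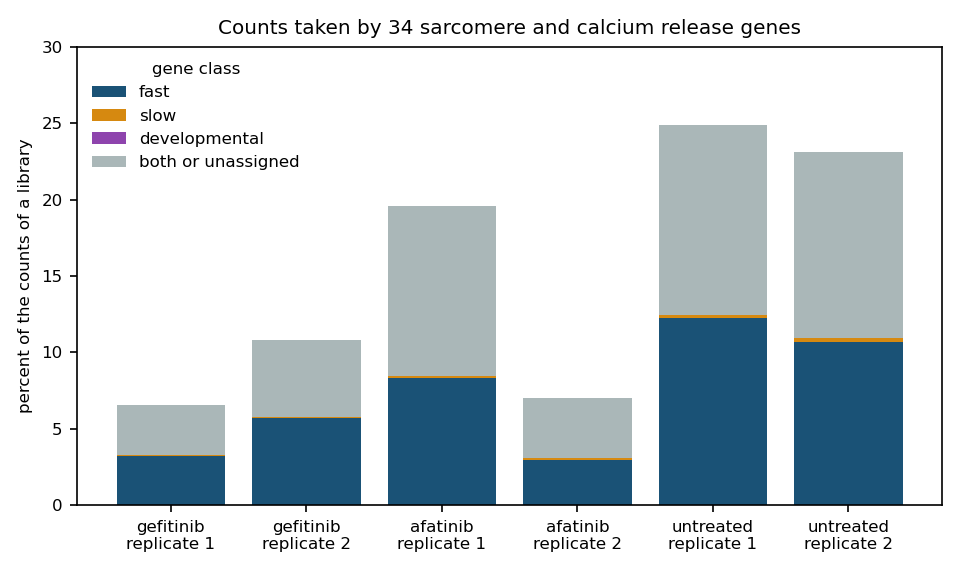
Percent of each library's counts taken by the 34 genes, stacked by fibre class, for the gefitinib, afatinib and untreated libraries. The untreated libraries reach 24.9% and 23.1%, afatinib replicate 1 reaches 19.6%, and the other 3 treated libraries lie between 6.56% and 10.8%; slow and developmental genes are thin slivers.

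With gefitinib, 10 of the 34 genes fell against untreated skin and 0 rose. They are 29.4% of the 34, where the background was 5.45% of the genes tested called lower and 12.3% called higher. Those that fell were 7 of 8 slow genes, both developmental myosins and 1 of 13 shared genes, against 0 of 11 fast genes (edgeR quasi-likelihood test, adjusted p under 0.05). Of the fast genes, 3 had an unadjusted p under 0.05, as did 18 of all 34, where 15.9% of the genes tested were lower at that level. All 34 genes were lower in both gefitinib libraries than in both untreated libraries, against a background of 33.9%. The median log2 fold change was -3.09 over the slow genes, -2.09 over the fast genes and -2.15 over all 34, beside 0.043 over all genes tested. Fast genes also had the larger standard errors, with a median of 0.927 on the log2 scale, against 0.59 for slow genes. Whether slow genes fell more than fast genes was not tested; the shares of paired isoforms given further on measure it. The number of calls changed with 1 library left out, among these genes and among all genes tested. Without untreated replicate 1 or 2 the count was 0 (backgrounds of 0.0175% and 0.0%). Without gefitinib replicate 1 or 2 it was 1, Tnnt1 (1.2% and 0.146%). Without afatinib replicate 1 or 2, which enter through the shared estimate of spread, it was 27 (12.7% and 15.1%). All 34 log2 fold changes stayed negative in each of these fits. Their median was -2.13 and -2.38 without untreated replicate 1 and 2, and -1.86 and -2.69 without gefitinib replicate 1 and 2. The lost calls were thus not particular to these genes, and they do not show that the fall rests on 1 library. DESeq2 called 33 genes lower, 11 of 11 fast genes among them, where 12.6% of all genes were.

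Myosin heavy chains are the motors of the thick filament. Myh7, the slow heavy chain, on chromosome 15 at 33634422 to 33656089, had 41.3 and 81.3 CPM with gefitinib, 160 and 229 CPM with afatinib, and 367 and 1269 CPM in untreated skin. The groups did not overlap, and the 2 untreated libraries differed more than those of either inhibitor. Myh7 fell by 3.74 ± 0.688 (SE) on the log2 scale with gefitinib (edgeR adjusted p = 0.0173), and its log2 fold change with afatinib was -2.07 (adjusted p = 0.118). Myh3, the embryonic heavy chain, had 7.02 and 11.5 CPM with gefitinib, 157 and 25.1 CPM with afatinib, and 115 and 66.1 CPM in untreated skin. It fell by 3.29 ± 0.814 with gefitinib (edgeR adjusted p = 0.0361), while the afatinib libraries lay on either side of the untreated ones. Myh8, the perinatal heavy chain, had 3.96 and 5.12 CPM with gefitinib, 25.3 and 14.4 CPM with afatinib, and 17.01 and 14.49 CPM in untreated skin. It fell by 1.79 ± 0.367 with gefitinib (edgeR adjusted p = 0.0219, against 0.0796 with library totals only), and afatinib replicate 2 was just below both untreated libraries.

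Myh1 encodes a fast heavy chain, and its locus had 7921 and 18847 CPM with gefitinib, 23604 and 7020 CPM with afatinib, and 40471 and 50530 CPM in untreated skin. Every treated library was below both untreated libraries, and the log2 fold changes were -1.76 ± 1.07 with gefitinib (edgeR adjusted p = 0.266) and -1.57 ± 1.07 with afatinib (adjusted p = 0.426). This locus may hold more than 1 gene. It spans chromosome 10 from 53713938 to 53848347, its summed exon length of 18143 bases is 3.01 times that of Myh3, and it overlaps the Myh8 locus by 29530 bases on the same strand. RefSeq (GRCr8) orders the cluster as Myh3, Myh2, Myh1, Myh4 and Myh8, so counts of Myh1 and Myh8 are uncertain and Myh1 is read here as fast myosin of unknown isoform.

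The light chains steady and tune the myosin lever arm. Myl3, the slow essential light chain, had 55.0 and 57.9 CPM with gefitinib, 512 and 120 CPM with afatinib, and 478 and 704 CPM in untreated skin. Its fast counterpart Myl1 had 2770 and 5237 CPM with gefitinib, 9949 and 2483 CPM with afatinib, and 20343 and 11100 CPM in untreated skin. Both genes were lowest with gefitinib or in afatinib replicate 2, and Myl3 in afatinib replicate 1 reached the untreated range. Myl3 fell by 3.39 ± 0.682 with gefitinib (edgeR adjusted p = 0.021), and Myl1 differed by -1.97 ± 0.927 on the log2 scale without passing the test (adjusted p = 0.165). Myl2, the slow regulatory light chain, was scarce, at 0.627 and 1.36 CPM with gefitinib, 8.64 and 2.81 CPM with afatinib, and 11.1 and 12.6 CPM in untreated skin. Its fast counterpart Mylpf had 2582 and 4402 CPM with gefitinib, 13048 and 2535 CPM with afatinib, and 21762 and 12337 CPM in untreated skin. Myl2 fell by 3.58 ± 0.663 with gefitinib (edgeR adjusted p = 0.0176), and Mylpf differed by -2.29 ± 0.989 without passing it (adjusted p = 0.138).

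Troponin T ties the troponin complex to tropomyosin. Tnnt1, the slow form, on chromosome 1 at 72889270 to 72899659, had 28.6 and 53.6 CPM with gefitinib, 127 and 104 CPM with afatinib, and 422 and 397 CPM in untreated skin. The 3 groups did not overlap, and the afatinib and the untreated libraries each lay close together, unlike most of the other genes. Tnnt1 fell by 3.32 ± 0.397 with gefitinib (edgeR adjusted p = 0.00986) and by 1.82 ± 0.374 with afatinib (adjusted p = 0.0461), and it was the 1 gene of the 34 called with afatinib. Tnnt3, the fast form, had 2570 and 6199 CPM with gefitinib, 11006 and 2308 CPM with afatinib, and 22570 and 14810 CPM in untreated skin, and its log2 fold change with gefitinib was -2.09 ± 0.998 (edgeR adjusted p = 0.17).

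Troponin I holds the filament off until calcium arrives. Tnni1, the slow form, on chromosome 13 at 52624878 to 52637297, had 50.3 and 58.0 CPM with gefitinib, 260 and 92.0 CPM with afatinib, and 348 and 441 CPM in untreated skin. It fell by 2.86 ± 0.516 with gefitinib (edgeR adjusted p = 0.0166), and the groups did not overlap. Tnni2, the fast form, had 1671 and 3233 CPM with gefitinib, 7069 and 1397 CPM with afatinib, and 13269 and 7962 CPM in untreated skin, with a log2 fold change of -2.11 ± 0.925 for gefitinib (edgeR adjusted p = 0.142). Troponin C is the calcium sensor. Tnnc1, its slow form, had 29.7 and 53.3 CPM with gefitinib, 202 and 80.5 CPM with afatinib, and 253 and 291 CPM in untreated skin, and it fell by 2.71 ± 0.513 with gefitinib (edgeR adjusted p = 0.0182). Tnnc2, its fast form, had 3234 and 5228 CPM with gefitinib, 14646 and 2109 CPM with afatinib, and 25270 and 13589 CPM in untreated skin. Here afatinib replicate 1 lay between the untreated libraries and replicate 2 below every other library, and the log2 fold change with gefitinib was -2.20 ± 1.07 (edgeR adjusted p = 0.176).

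Slow and fast troponin genes were both lower in the gefitinib libraries, and the RefSeq promoters (GRCr8, 250 bases before to 50 after the transcription start) of slow Tnnt1 and Tnni1, of fast Tnni2 and of the actin gene Acta1 are shown to set their motif content side by side. The windows are chr1:78348785-78349084 on the plus strand for Tnnt1, chr13:49781279-49781578 on the plus strand for Tnni1, chr1:207024240-207024539 on the plus strand for Tnni2 and chr19:68784145-68784444 on the minus strand for Acta1. Capitals mark matches to the E-box CANNTG, which myogenic factors can bind, to TATAAA, to CATTCC and to the CArG box, searched on both strands.
Tnnt1: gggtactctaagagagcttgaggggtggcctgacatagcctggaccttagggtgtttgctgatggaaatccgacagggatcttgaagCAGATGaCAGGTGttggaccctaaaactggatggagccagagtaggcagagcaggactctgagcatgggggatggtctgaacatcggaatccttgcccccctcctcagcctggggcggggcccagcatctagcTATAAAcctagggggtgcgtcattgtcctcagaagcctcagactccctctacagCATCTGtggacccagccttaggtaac
Tnni1: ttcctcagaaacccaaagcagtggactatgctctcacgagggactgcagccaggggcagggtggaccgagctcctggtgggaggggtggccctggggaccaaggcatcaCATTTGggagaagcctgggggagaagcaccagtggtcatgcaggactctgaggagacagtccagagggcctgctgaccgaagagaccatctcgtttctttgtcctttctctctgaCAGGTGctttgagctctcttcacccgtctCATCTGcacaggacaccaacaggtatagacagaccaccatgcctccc
Tnni2: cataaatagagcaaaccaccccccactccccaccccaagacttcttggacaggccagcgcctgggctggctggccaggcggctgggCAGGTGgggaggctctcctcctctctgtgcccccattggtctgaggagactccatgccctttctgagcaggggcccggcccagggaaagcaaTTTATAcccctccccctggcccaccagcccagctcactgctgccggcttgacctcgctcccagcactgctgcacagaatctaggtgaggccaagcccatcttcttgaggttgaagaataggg
Acta1: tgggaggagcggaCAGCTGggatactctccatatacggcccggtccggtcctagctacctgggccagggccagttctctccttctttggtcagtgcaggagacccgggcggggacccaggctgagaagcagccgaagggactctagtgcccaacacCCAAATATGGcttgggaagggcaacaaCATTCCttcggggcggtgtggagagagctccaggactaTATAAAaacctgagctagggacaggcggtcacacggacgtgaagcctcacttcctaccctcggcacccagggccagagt
Counted from the transcription start, Tnnt1 had E-boxes at -163, -156 and 25 and TATAAA at -30. Tnni1 had E-boxes at -141, -26 and 4 and no TATAAA. Tnni2 had an E-box at -164 and TATAAA, read on the opposite strand, at -72. Acta1 had an E-box at -237, a CArG box at -94, CATTCC at -67 and TATAAA at -29. A promoter was in the table for 30 of the 34 genes. Myl1 had 2 promoter windows and Tpm3 had 3, and a gene was counted if any of its windows had the motif, while the percents are of promoters. An E-box was found for 25 of these 30 genes, beside 72.1% of all 33469 promoters, and TATAAA was in 9 of 30, beside 14.2%. CATTCC was in 7 of 30, beside 14.2%. A CArG box was in 3 (Acta1, Ldb3 and Myl3), beside 1.64%, and a MEF2 site, which TATAAA can overlap, was in 4 (Myh1, Myl1, Myoz1 and Myoz2), beside 3.29%. Of the slow genes 6 of 6 and of the fast genes 7 of 9 had an E-box. A match describes the letters only.

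Thin filaments are anchored in the Z-disc, where alpha-actinin crosslinks actin. Acta1, skeletal alpha-actin, on chromosome 19 at 56674074 to 56677084, had 8207 and 16526 CPM with gefitinib, 54761 and 11789 CPM with afatinib, and 78631 and 68684 CPM in untreated skin. It had the highest level per length of the 34 genes in untreated skin, with a mean of 51876 FPKM, and its log2 fold change with gefitinib was -2.57 ± 1.25 (edgeR adjusted p = 0.177). Actn2, an alpha-actinin of both fibre kinds, had 579 and 643 CPM with gefitinib, 1916 and 489 CPM with afatinib, and 3268 and 3627 CPM in untreated skin. It fell by 2.50 ± 0.703 with gefitinib (edgeR adjusted p = 0.0495) and was the only shared gene called. Its call was lost with DESeq2 size factors in edgeR (adjusted p = 0.051) and with limma-voom (adjusted p = 0.0506), which called the shared gene Mybpc1 instead. Myoz2, the slow calsarcin, a Z-disc protein that binds calcineurin, had 24.1 and 64.5 CPM with gefitinib, 207 and 61.4 CPM with afatinib, and 267 and 220 CPM in untreated skin, and it fell by 2.46 ± 0.666 (edgeR adjusted p = 0.0449). Neb, a ruler along the thin filament, had 904 and 1491 CPM with gefitinib, 2390 and 1302 CPM with afatinib, and 3102 and 5350 CPM in untreated skin, with a log2 fold change of -1.82 ± 0.613 for gefitinib (edgeR adjusted p = 0.0783). Myoz3, another calsarcin, had 12.0 and 15.2 CPM with gefitinib, 48.7 and 16.2 CPM with afatinib, and 17.5 and 61.7 CPM in untreated skin. Its 2 untreated libraries lay farther apart than the groups did. Of the genes not given by library, Actn3, Mybpc1, Mybpc2, Myoz1, Tpm1, Tpm2, Tpm3, Ldb3 and Des, none passed the test with either inhibitor. Their log2 fold changes with gefitinib lay between -2.83 (Mybpc1, slow-type myosin-binding protein C, adjusted p = 0.0544) and -1.26 (Tpm3, slow tropomyosin, adjusted p = 0.0758).

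None of the 4 calcium genes, Cacna1s, Ryr1, Casq1 and Pvalb, passed the test, although 3 of them came close with gefitinib. Cacna1s, the voltage sensor, had 169 and 267 CPM with gefitinib, 698 and 186 CPM with afatinib, and 910 and 1254 CPM in untreated skin, a log2 fold change of -2.31 ± 0.655 for gefitinib (edgeR adjusted p = 0.0504). Ryr1, the release channel, had 363 and 662 CPM with gefitinib, 1260 and 449 CPM with afatinib, and 1787 and 2478 CPM in untreated skin, a log2 fold change of -2.06 ± 0.63 (edgeR adjusted p = 0.0614). All treated libraries were below all untreated libraries for both channels. Casq1, the fast calsequestrin that stores calcium, had 465 and 616 CPM with gefitinib, 1819 and 355 CPM with afatinib, and 3811 and 3156 CPM in untreated skin, a log2 fold change of -2.69 ± 0.789 (edgeR adjusted p = 0.0552). Pvalb, a calcium buffer of fast fibres, had 411.9 and 957 CPM with gefitinib, 1766 and 296 CPM with afatinib, and 6595 and 3171 CPM in untreated skin. Its log2 fold change was -2.83 ± 0.954 with gefitinib (edgeR adjusted p = 0.0779) and -2.24 ± 0.932 with afatinib (adjusted p = 0.217).

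Of the energy and oxygen genes, Ckm, the muscle creatine kinase, had 4236 and 8040 CPM with gefitinib, 14686 and 3540 CPM with afatinib, and 25007 and 23756 CPM in untreated skin, a log2 fold change of -1.99 ± 0.97 for gefitinib (edgeR adjusted p = 0.177). Mb, the oxygen-binding myoglobin, had 1218 and 2384 CPM with gefitinib, 11845 and 2092 CPM with afatinib, and 6662 and 6354 CPM in untreated skin. Afatinib replicate 1 was above both untreated libraries for Mb, and replicate 2 was below both. Mb, Myh3 and Myh8 were the 3 genes for which afatinib replicate 1 exceeded both untreated libraries.

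**Figure D2:**
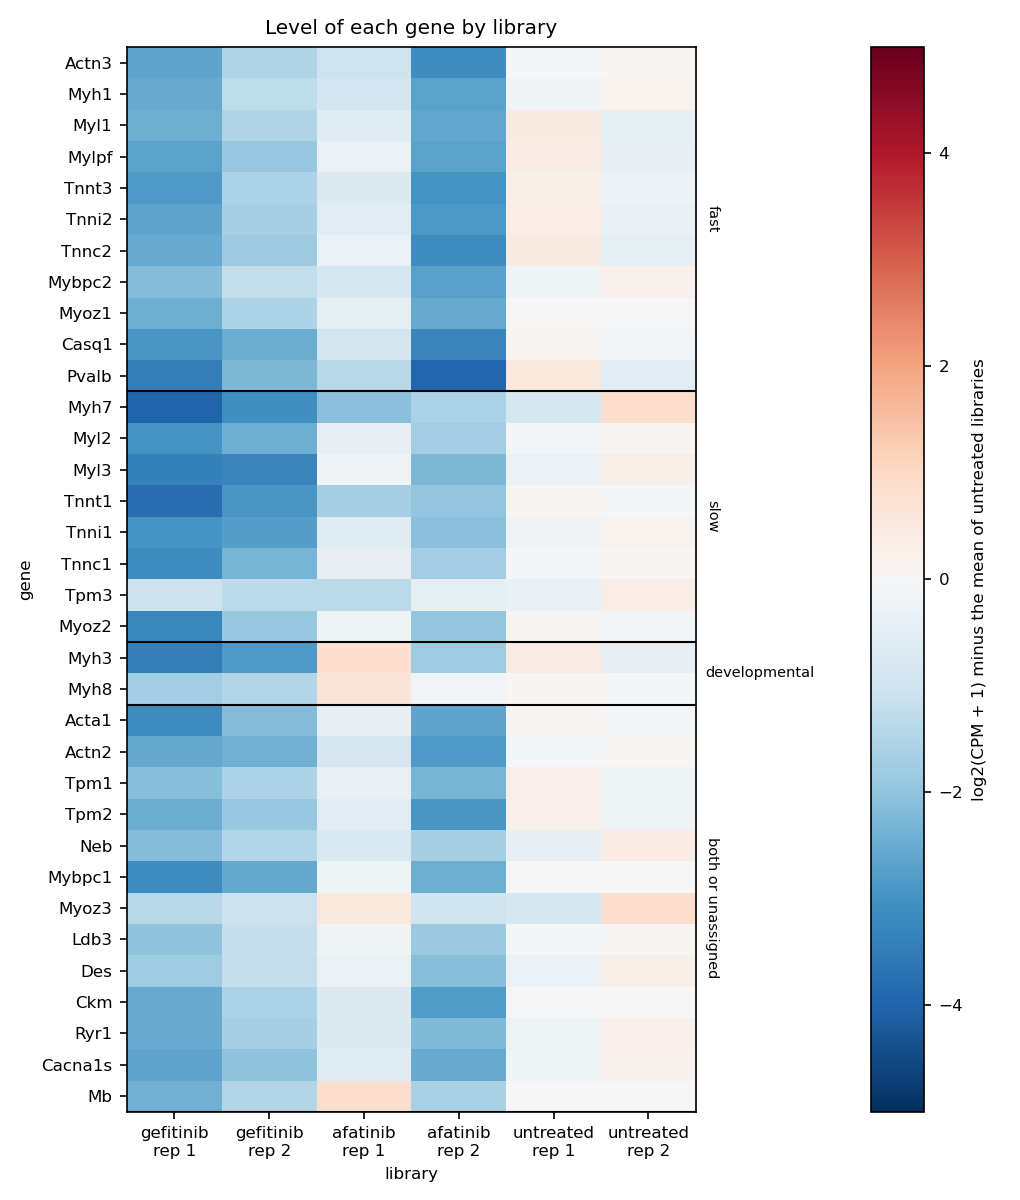
Colour shows log2(CPM + 1) of each of the 34 genes in each library minus the mean of the untreated libraries, with genes in rows by fibre class and the gefitinib, afatinib and untreated libraries in columns. The gefitinib columns are blue throughout, the column of afatinib replicate 2 is blue but for a nearly white Myh8, that of afatinib replicate 1 is paler, and Myh3, Myh8, Myoz3 and Mb are red there.

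Afatinib against untreated skin gave 1 call, Tnnt1, against a background of 0.372% called lower; at an unadjusted p under 0.05 there were 4, where 5.91% of the genes tested were lower. Both afatinib libraries were below both untreated libraries for 27 of 34 genes, against a background of 21.8%. The median log2 fold change was -1.19, with 31 of 34 negative, and the positive values were 0.33 for Myh8, 0.099 for Mb and 0.0081 for Myh3. The Tnnt1 call was lost with library totals only (edgeR adjusted p = 0.0672), with limma-voom (0.0874) and in a fit of only the groups compared (0.0833). The count turned on afatinib replicate 1: without it 19 genes were called lower, with a median of -2.41 and a background of 7.87%, and without any other library 0 were called.

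**Figure D3:**
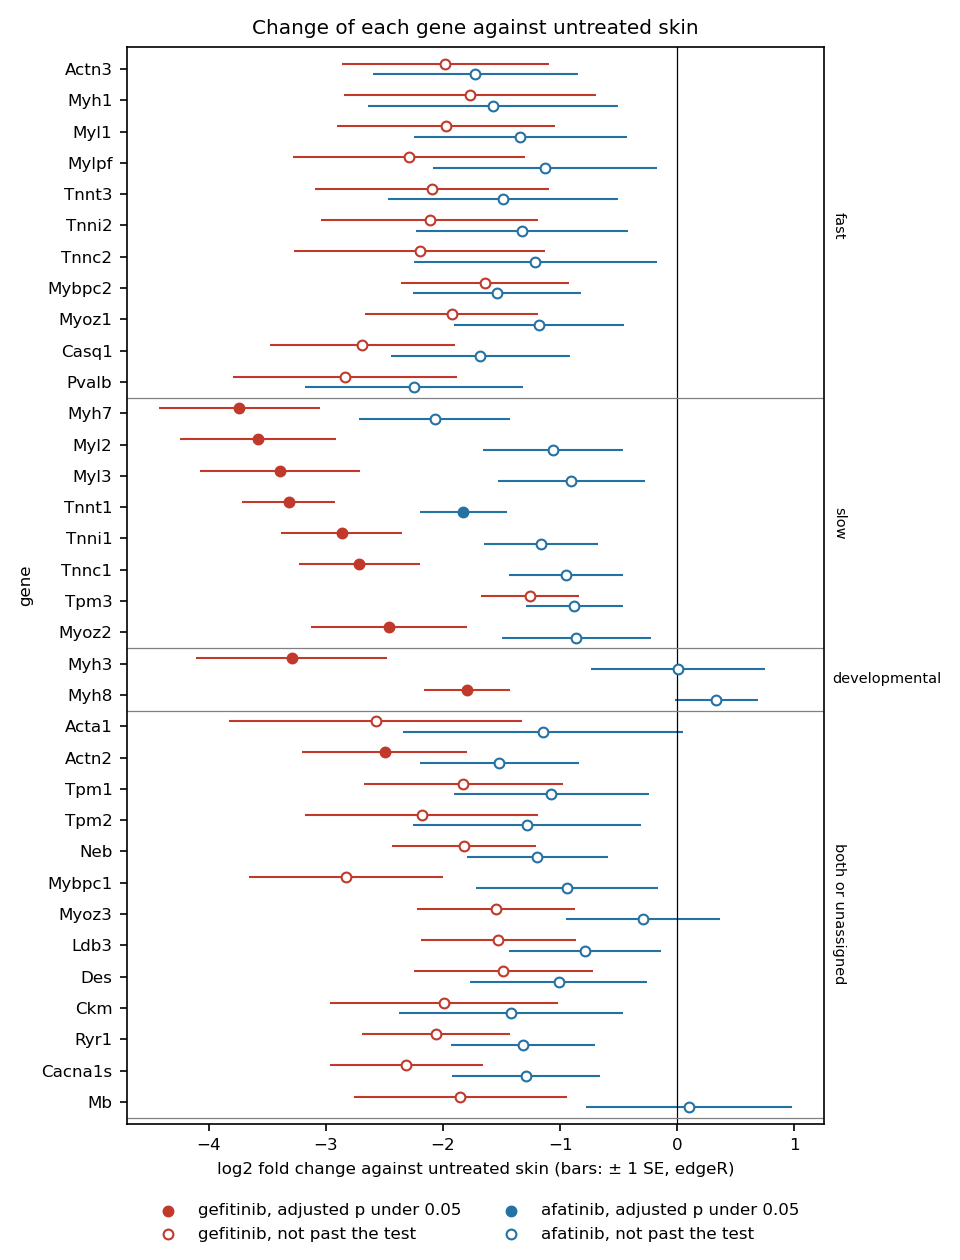
Log2 fold change of each gene against untreated skin with its standard error, for gefitinib (red) and afatinib (blue), filled where edgeR's adjusted p was under 0.05. The 10 filled gefitinib points lie among the slow genes, the developmental myosins and Actn2, and the 1 filled afatinib point is Tnnt1.

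Between the inhibitors, 0 of the 34 genes were called in afatinib against gefitinib skin by edgeR's adjusted p, with a background of 0.0%. At an unadjusted p under 0.05 there were 10 (Myh3, Myh7, Myh8, Myl2, Myl3, Tnnt1, Tnni1, Tnnc1, Myoz2 and Mybpc1), all higher with afatinib, where 5.77% of the genes tested reached that level in either direction. DESeq2 called 3, Myh3, Myh8 and Myl3, where 0.195% of genes were called. Myh3 had the largest difference, at 3.30 ± 0.814 on the log2 scale, and Myh8 had 2.13 ± 0.369, each with an edgeR adjusted p of 0.787. Both afatinib libraries were above both gefitinib libraries for 10 genes, against a background of 17.1%, and 6 of the 8 slow genes and 0 of the 11 fast genes were among them. The median log2 difference was 0.98, and without afatinib replicate 1 it was -0.28.

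With the inhibitors weighted equally, 7 genes fell against untreated skin, where 4.93% of the genes tested were called lower: Tnnt1, Myh7, Tnni1, Myl2, Tnnc1, Myl3 and Actn2. Their log2 fold changes lay between -2.90 for Myh7 and -1.83 for Tnnc1, and the median over all 34 genes was -1.71. Pvalb, at -2.54, was the third most negative gene and did not pass (edgeR adjusted p = 0.0578), and Myh8 at -0.73, Mb at -0.88 and Myoz3 at -0.92 were the least negative. These comparisons share the untreated libraries. The count was 0 without untreated replicate 1 or 2 (backgrounds of 0.0408% and 0.00581%), 2 without gefitinib replicate 1 (2.35%) and 3 without gefitinib replicate 2 (1.28%). It was 32 without afatinib replicate 1 (15.1%) and 13 without afatinib replicate 2 (6.23%).

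Fast and slow isoforms of 1 protein were set against each other as the slow isoform's percent of the counts of the pair, so that the level of the pair in a library divides out, while the lengths of the 2 transcripts do not. Their 95% Wilson intervals were at most 1.08 percentage points wide, and 0.0512 for the scarce Myl2. Tnnt1 made up 1.10% and 0.857% of the troponin T pair with gefitinib, 1.14% and 4.31% with afatinib, and 1.83% and 2.61% in untreated skin. Myl3 made up 1.95% and 1.09% of its pair with gefitinib, 4.89% and 4.61% with afatinib, and 2.30% and 5.96% in untreated skin. Gefitinib libraries were thus below both untreated libraries for these pairs, and afatinib libraries were not. For troponin I, the Tnni1 percent was 2.92% and 1.76% with gefitinib, 3.54% and 6.18% with afatinib, and 2.56% and 5.25% in untreated skin. For troponin C, the Tnnc1 percent was 0.909% and 1.01% with gefitinib, 1.36% and 3.68% with afatinib, and 0.99% and 2.10% in untreated skin. In these 2 troponins gefitinib and untreated libraries overlapped. Myh7 was 0.518% and 0.43% of its pair with the Myh1 locus with gefitinib, 0.675% and 3.16% with afatinib, and 0.898% and 2.45% in untreated skin. Myl2 was 0.0243% and 0.0308% of its pair with Mylpf with gefitinib, 0.0662% and 0.111% with afatinib, and 0.0511% and 0.102% in untreated skin. Myoz2 was 3.77% and 5.41% of the calsarcin pair with Myoz1 with gefitinib, 8.15% and 9.63% with afatinib, and 7.56% and 6.18% in untreated skin, so that the gefitinib libraries were the lowest. Casq2 was 8.22% and 3.98% of the calsequestrin pair with Casq1 with gefitinib, 3.86% and 8.27% with afatinib, and 4.48% and 4.35% in untreated skin, where both treated groups spanned the untreated libraries. Over these 8 pairs, gefitinib was below untreated skin without overlap in 5, afatinib in 0, and gefitinib was below afatinib in 7. For levels of single genes, which are another measure, these patterns held for 33.9%, 21.8% and 17.1% of all genes tested. Pair shares of other genes were not counted. The 8 pairs come from the same libraries and are not separate observations. Actn2, which both fibre kinds use, was 23.3% and 13.4% of its pair with fast Actn3 with gefitinib, 24.6% and 26.1% with afatinib, and 22.9% and 21.9% in untreated skin.

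**Figure D4:**
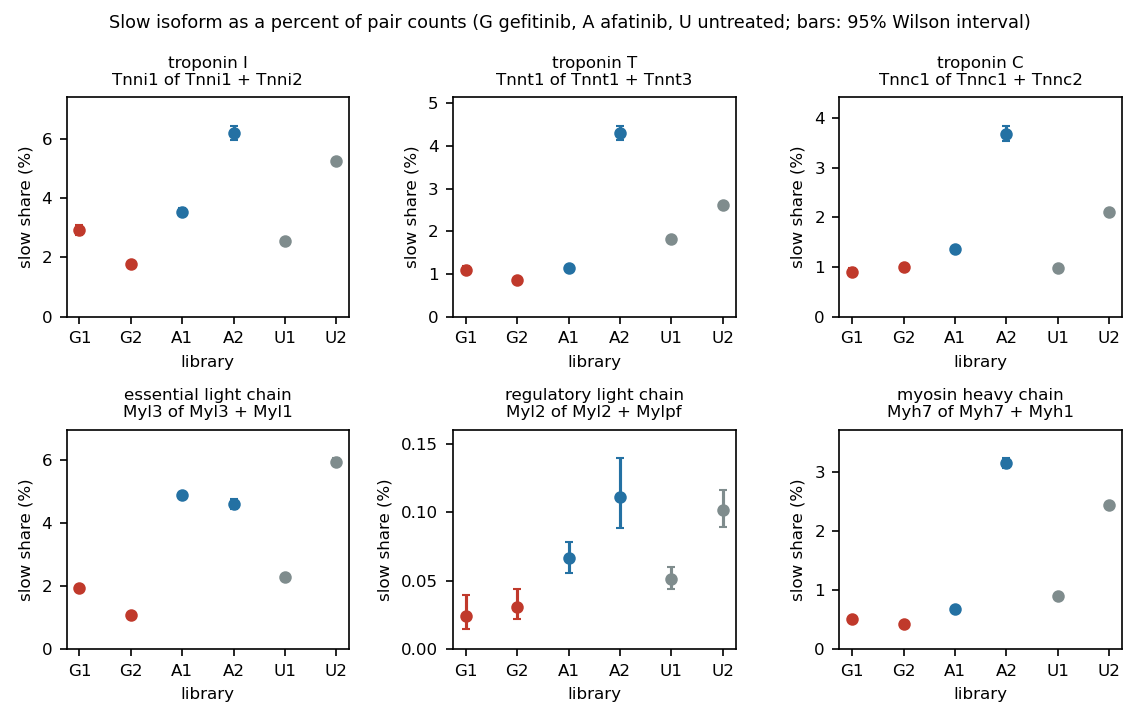
Slow isoform as a percent of the summed counts of a slow and fast pair, per library, with 95% Wilson intervals; red is gefitinib, blue afatinib and grey untreated. Afatinib replicate 2 is the highest library for troponin I, T and C, myosin heavy chain and regulatory light chain, and both gefitinib libraries are the lowest for troponin T, myosin heavy chain and both light chains.

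A summary of the same contrast, the mean log2(CPM + 1) of the 11 fast genes minus that of the 8 slow genes, was 5.68 and 6.05 with gefitinib, 5.38 and 4.03 with afatinib, and 5.67 and 4.85 in untreated skin. The slow mean includes Tpm3. The group means differed by 0.61 for gefitinib minus untreated and by -0.56 for afatinib minus untreated, both less than the pooled replicate SD of 0.663. Afatinib minus gefitinib was -1.16, larger than that spread, with no overlap of the libraries, and without afatinib replicate 2 it was -0.49. Among the counts of the 34 genes, 7 of 8 slow genes had a smaller share with gefitinib than in untreated skin without overlap, as did 2 of 11 fast genes and 12 of all 34. Such shares sum to 100% in each library, so a change in the most abundant genes moves the rest. They draw on the same counts as the calls and the pair shares and are not a separate observation. A larger share without overlap was found for 2 fast genes and for 8 of all 34 with gefitinib. With afatinib 1 slow gene and 9 of all 34 had a larger share, and 4 of 34 a smaller one. Mb made up 2.39% and 2.46% of these counts with gefitinib, 5.40% and 4.15% with afatinib, and 1.92% and 2.14% in untreated skin, so that its share was higher in every treated library.

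Other genes of the same structures were taken as lists of 27 sarcomere and 20 triad genes. Of the sarcomere genes 13 fell with gefitinib, with a median log2 fold change of -1.97, and 3 fell with afatinib, with a median of -1.45. None rose. Over all genes tested, 5.45% were called lower and 12.3% higher with gefitinib, and 0.372% lower with afatinib. Csrp3, a Z-disc adaptor, had 121 and 208 CPM with gefitinib, 210 and 162 CPM with afatinib, and 869 and 859 CPM in untreated skin, and it fell with both inhibitors (edgeR adjusted p = 0.015 and 0.0369). Mybph, a myosin-binding protein, had 54.9 and 131 CPM with gefitinib, 48.5 and 53.9 CPM with afatinib, and 640 and 667 CPM in untreated skin, and it also fell with both. The third gene lower with afatinib was Myh7b, a heavy chain of slow-tonic type, with 5.88 and 6.74 CPM with gefitinib, 5.004 and 5.167 CPM with afatinib, and 16.7 and 17.6 CPM in untreated skin; it fell by 1.75 ± 0.304 with afatinib (edgeR adjusted p = 0.0352). These 3 genes had no overlap between treated and untreated libraries. Myom3, an M-band protein, had 94.7 and 144 CPM with gefitinib, 174 and 140 CPM with afatinib, and 411 and 358 CPM in untreated skin. Lmod3, which nucleates thin filaments, had 72.0 and 108 CPM with gefitinib, 201 and 85.9 CPM with afatinib, and 369 and 344 CPM in untreated skin. Flnc, a filamin of the Z-disc, had 336 and 512 CPM with gefitinib, 888 and 358 CPM with afatinib, and 2118 and 6078 CPM in untreated skin. These 3 genes fell with gefitinib and did not pass with afatinib; the difference between the inhibitors did not pass for any of them. Of the triad genes 4 fell with gefitinib (Asph, Srl, Casq2 and Ryr3), 1 rose (Sln) and none passed with afatinib. Asph, whose locus also yields the triad protein junctin, had 95.7 and 126 CPM with gefitinib, 162 and 86.8 CPM with afatinib, and 332 and 411 CPM in untreated skin. Srl, sarcalumenin, a calcium-binding protein of the reticulum, had 266 and 397 CPM with gefitinib, 578 and 281 CPM with afatinib, and 1075 and 1470 CPM in untreated skin. Ryr3, a second release channel, had 3.999 and 4.245 CPM with gefitinib, 10.5 and 9.49 CPM with afatinib, and 15.4 and 16.3 CPM in untreated skin. All treated libraries were below both untreated libraries for these 3 genes. Sln, sarcolipin, which restrains the calcium pump, had 235 and 218 CPM with gefitinib, 192 and 224 CPM with afatinib, and 114 and 59.5 CPM in untreated skin. It rose by 1.38 ± 0.369 with gefitinib (edgeR adjusted p = 0.0434), where all 34 genes had negative values. Casq2, the slow calsequestrin, had 41.7 and 25.5 CPM with gefitinib, 73.0 and 32.0 CPM with afatinib, and 179 and 144 CPM in untreated skin, and it fell by 2.26 ± 0.45 with gefitinib (edgeR adjusted p = 0.0204). Atp2a2, the calcium pump of slow fibres, had 226 and 210 CPM with gefitinib, 178 and 406.8 CPM with afatinib, and 279 and 658 CPM in untreated skin, and did not pass. Between replicates of each inhibitor Atp2a2 went against most of the 34 genes, and whether its RNA came from muscle was not tested.

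Markers of skeletal muscle fibres were present. Summed levels of 12 fibre identity genes such as the acetylcholine receptor and dystrophin were 367 and 578 CPM with gefitinib, 1030 and 357 CPM with afatinib, and 1357 and 1242 CPM in untreated skin. Of these, 0 of 12 passed with either inhibitor. At an unadjusted edgeR p under 0.05 there were 7 with gefitinib and 2 with afatinib. Over all genes tested, 37.2% and 21.9% reached that level in either direction. By adjusted p, 5.45% of all genes tested were called lower and 12.3% higher with gefitinib. With afatinib these shares were 0.372% and 3.6%. The heart markers Tnni3 and Myl7 had at most 4 and 5 counts in any library. Of 5 heart markers tested 2 fell with gefitinib, Myh6 and Myl4, and 1 rose, Nppb. With afatinib 1 heart marker fell and 1 rose. Of 9 satellite cell and myoblast markers 3 fell with gefitinib (Myod1, Myog and Megf10) and 0 with afatinib. Markers of other cell types went both ways. Of 7 Schwann cell markers 5 fell with gefitinib and 3 with afatinib. Summed Schwann levels were 226 and 131 CPM with gefitinib, 286 and 194 CPM with afatinib, and 1363 and 926 CPM in untreated skin. Of 5 endothelial markers 3 fell with gefitinib and 0 with afatinib. Of 7 fibroblast markers 1 rose with gefitinib, Fbln1, and 0 passed with afatinib. The median log2 fold change of the fibroblast markers was -1.19 with gefitinib and -0.57 with afatinib. Summed fibroblast levels were 6067 and 1217 CPM with gefitinib, 8716 and 3165 CPM with afatinib, and 20989 and 9925 CPM in untreated skin. Of 9 smooth muscle markers 2 fell with gefitinib, Lmod1 and Synm, and 0 passed with afatinib. The median log2 fold change was -0.31 with gefitinib and 0.75 with afatinib. Their summed levels were 841 and 500 CPM with gefitinib, 1092 and 1055 CPM with afatinib, and 1578 and 2548 CPM in untreated skin. The sum was thus lower in every treated library, unlike the afatinib median. Of 7 adipocyte markers 0 passed, with medians of 0.39 and 1.42. Summed levels of the adipocyte list were 641 and 345 CPM with gefitinib, 291 and 625 CPM with afatinib, and 476 and 502 CPM in untreated skin. Of 6 keratinocyte markers 3 rose with gefitinib and 1 with afatinib. All 8 hair follicle markers measured rose with gefitinib, and 4 rose with afatinib. Summed hair follicle levels were 4339 and 3637 CPM with gefitinib, 1119 and 3356 CPM with afatinib, and 70.5 and 263 CPM in untreated skin. Here afatinib replicate 1, the treated library with the most muscle RNA, was the lowest treated library. The part of these shifts in the muscle values was not tested.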

How the data were processed

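RNA from back skin was sequenced from Illumina TruSeq libraries, 6 in all, with 2 in each group, per the labels' protocols. The submitters' processing notes name DESeq2 1.16.1, featureCounts 1.5.0-p3 and HISAT2 2.0.5 without their roles. Build, annotation and strand setting were not given in the sources used here. Whole read counts per locus, deposited by the authors, were used for all tests and CPM; FPKM values, also deposited by the authors, were used to rank genes by level per length and as an alternative scale for the fast minus slow difference. Overlapping loci can share reads. Groups were taken from the treatment labels. Counts were tested with edgeR 4.0.16 (limma 3.58.1, R 4.3.3): TMM scaling, the default expression filter, a quasi-likelihood fit of 3 groups with 3 residual degrees of freedom, and Benjamini-Hochberg adjustment over all 16398 genes with a threshold of 0.05. The procedure was tested on data simulated with the same fixed spread for every gene. That spread was smaller than the one between the afatinib libraries here, so the simulation does not cover it. Shares have Wilson intervals at 95%, and log2 levels use a pseudocount of 1 CPM. Tables and promoters were handled in Python 3.11.15 (scipy 1.17.1). Alternatives were library totals, DESeq2 size factors, TMM without muscle genes, no filter, DESeq2 1.42.0, limma-voom, a replicate block, a pseudocount of 0.1 CPM, a fit of only the groups compared, and leaving out each library. By rule, values in every library were given for the heavy chains, the fast and slow troponins and light chains, Acta1, Ckm, Neb, Mb, Pvalb, the calcium genes, every gene past a test, and the 3 most negative and 3 most positive genes over both inhibitors; from other muscle lists, genes past the test, at most 6 a list by smallest p with gefitinib, and Atp2a2 and Casq2. The genes, lists and rule were chosen with earlier results of these data known.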

Additional observations from a re-analysis of the deposited data

How the results depend on the processing

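With gefitinib, 10 genes were called lower, beside 5.45% of all genes; 21 were without the filter (8.68%), 33 with DESeq2 (12.6%), 24 in a fit of only the groups compared (14%), and 0 to 27 when 1 library was left out. With afatinib, 1 was called (0.372%); 3 were without the filter (2.02%), 4 with DESeq2 (3.04%), 0 to 19 with 1 library left out, and 0 with library totals, limma-voom, the replicate block or only the groups compared. With both inhibitors, 7 were called (4.93%); 20 were without the filter (7.72%), 30 with DESeq2 (10.8%) and 0 to 32 with 1 library left out. Afatinib against gefitinib gave 0 calls, 3 without the filter (0.126% in either direction), 3 with DESeq2 (0.195%) and 0 to 0 with 1 library left out. The labels give no pairing of samples by replicate number, and whether there was one is not known. Across genes, deviations of replicate 1 from its group mean correlated by 0.033 between untreated and gefitinib skin. The values were 0.037 for untreated and afatinib and -0.17 for the 2 inhibitors. The replicate block gave 8, 0, 6 and 0 calls, losing Actn2 (edgeR adjusted p = 0.0746) and Myoz2 (0.0697) with gefitinib. Library totals shifted the median of all genes to 0.73 with gefitinib and 0.71 with afatinib, and the 34 genes' medians to -1.48 and -0.76.

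With 1 library left out, the lone library is assumed to vary like the other groups. The median log2 fold change then ranged from -2.69 to -1.86 with gefitinib, -2.41 to -0.62 with afatinib, -2.46 to -1.42 with both, and -0.28 to 1.65 for afatinib against gefitinib. The fast minus slow difference ranged from 0.20 to 1.02 with gefitinib, -1.23 to 0.12 with afatinib, -0.38 to 0.43 with both, and -1.84 to -0.49 for afatinib against gefitinib. From deposited FPKM it was 0.64, -0.55, 0.045 and -1.19 in that order. Library scaling and gene length divide out of this difference except through the pseudocount, so the FPKM values are not a separate check. Signs reversed for 4 genes with afatinib. Myoz3 was 0.13 with library totals and -1.30 to 0.89 with 1 library left out. Myh3 was -0.051 with DESeq2 size factors in edgeR, -0.050 with DESeq2, -0.40 with limma-voom, -0.23 with the replicate block, -0.047 with only the groups compared and -1.86 to 0.74 with 1 library left out. Mb was -0.27 with limma-voom, -0.072 with the replicate block and -1.64 to 0.81 with 1 library left out, and Myh8 was -0.14 to 0.63. With both inhibitors Myoz3 ranged from -1.56 to 0.26. The causes were not tested. Depth limits Myl2 most, which had 16 counts in 1 gefitinib library.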

Other observations

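Taken by annotated domain, 10 loci without a gene symbol had a mean above 1000 counts over all libraries, the untreated ones included. Most were annotated with an ATPase, haloacid dehalogenase or immunoglobulin I-set domain, and the others with an EGF-like or another immunoglobulin domain. Of these 10 loci, 9 were lower in every treated library than in both untreated libraries, and 8 were higher in afatinib replicate 1 than in replicate 2. The choice by a mean that includes the untreated libraries favours loci high in untreated skin, and so the first pattern. Its count describes these loci only. The shares of all genes tested with these patterns were not counted. For gefitinib alone, both libraries were below both untreated libraries for 33.9% of genes tested, and for afatinib alone for 21.8%. A locus annotated only with the C-terminal domain of a cation transporting ATPase, on chromosome 1 at 197856903 to 197858016, had 1047 and 2241 CPM with gefitinib, 4216 and 818 CPM with afatinib, and 7004 and 7335 CPM in untreated skin. A locus annotated only with an immunoglobulin I-set domain, on chromosome 3 at 63566184 to 63568464, had 349 and 924 CPM with gefitinib, 1207 and 358 CPM with afatinib, and 3199 and 1953 CPM in untreated skin. Another I-set locus, on chromosome 3 at 63606878 to 63692347, went the other way between the afatinib libraries, with 46.8 and 59.0 CPM with gefitinib, 51.7 and 146 CPM with afatinib, and 150 and 205 CPM in untreated skin. The first 2 loci met both patterns, and all 3 were chosen after their values were seen.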
